A study of Homo sapiens with 6 samples.

Results

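Glycolysis was examined gene by gene in HCC2814 cells, a human lung squamous cell carcinoma (LUSC) line, for 36 genes out of the 17448 listed in the expression table. The 36 genes were picked by name, as the glucose and lactate transporters, the enzymes of each glycolytic step, the PFKFB enzymes and the kinases and catalytic subunit that govern entry of pyruvate into the mitochondrion. RNA-seq covered 3 WT samples, which received a non-targeting guide and so are not untreated cells, and 3 MLST8-KO samples, which received a guide against MLST8, a shared subunit of the kinase complexes mTORC1 and mTORC2. Both groups were grown in DMEM with serum and taken through antibiotic selection after the guide was introduced, and the replicates came from independent experiments. The sources do not say whether the sequenced cells were pools or single clones, nor which guide each sample carried. The question addressed was how loss of MLST8 altered the expression of the glycolytic machinery, and for each step which isozyme carried the expression in each group.

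Glycolysis turns glucose into pyruvate in the cytosol. Facilitative transporters bring glucose in, hexokinase traps it as glucose 6-phosphate, phosphofructokinase commits it, and the lower steps yield ATP and pyruvate. Lactate dehydrogenase then reduces pyruvate to lactate, which leaves the cell through monocarboxylate transporters, or pyruvate dehydrogenase passes it to the citric acid cycle unless a pyruvate dehydrogenase kinase (PDK) switches the enzyme off. Most steps are served by several isozymes, encoded by separate genes with different tissue distribution and regulation, and squamous lung tumours are known for high glucose uptake through GLUT1.

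Estimated counts summed to between 14381673 and 15744154 per library. Levels are given as TPM, the authors' measure per gene length and depth, where genes are compared with each other and mostly also where libraries are compared. Estimated counts or CPM (counts scaled to the TMM-corrected library size) are given where they are named. Fold changes, standard errors (SE) and adjusted p-values are from edgeR's quasi-likelihood test over the 12951 genes that passed a filter on low counts. MLST8 itself was lower in the MLST8-KO libraries, at 57.97, 56.95 and 60.75 CPM in WT replicates 1 to 3 and 25.6, 38.9 and 25.7 CPM in MLST8-KO replicates 1 to 3 (log2 fold change -0.96, SE 0.15, adjusted p = 0.00339 by edgeR). All 10 squamous and basal epithelial markers were detected, and their summed TPM was 11990.0 to 19010.0 in WT and 24030.0 to 26840.0 in MLST8-KO libraries, and its part in the results below was not tested. WT replicates 1 and 3 differed more from each other (chi-square per gene 26.5) than any other pair of one group (6.98 to 10.2). MLST8-KO replicate 1 stood apart by 13 liver genes, all highest in that library, whose summed TPM was 322 there and 0.96 to 7.85 in the other 5. Of the immune markers, 4 were in the table, with a summed TPM of 46.4 to 80.4 that was nearly all CD68, a lysosomal gene, while PTPRC reached at most 0.03 TPM. In bulk samples such as these, fewer cells of a type and less RNA per cell cannot be told apart.

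In MLST8-KO libraries 7 glycolytic genes were lower and 4 higher, rates not far from those of all genes tested. The genes that held most of the TPM of each step were mostly not among them. The genes that fell were the transporters SLC2A12 (GLUT12) and SLC16A3 (MCT4), the hexokinases HK2 and HKDC1, PFKFB3, the aldolase ALDOC and the enolase ENO3. Those that rose were the transporter SLC2A6 (GLUT6), the phosphofructokinase PFKM, and the kinases PDK2 and PDK3. Of the 36 genes, 33 passed the filter, and SLC2A3, PKLR and LDHB had too few counts to be tested. The 7 lower genes were 21.2% of the 33 tested, where 15.7% of all genes tested were lower, and the 4 higher genes were 12.1%, where 16.3% of all genes tested were higher. In either direction 32.0% of all genes tested were called, and the other 22 glycolytic genes did not pass the threshold. With DESeq2, 9 were lower and 4 higher, where 15.1% and 13.9% of the 13355 genes it tested were. The median log2 fold change of the 33 was -0.10, against 0.00 over all genes tested.

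In 16 of the 33 genes (48.5%) every MLST8-KO library was below every WT library in CPM, which held for 24.2% of all genes tested. In 4 genes (12.1%) every MLST8-KO library was above every WT library, which held for 24.8% of all genes tested. On the TPM scale the split was different, with 8 genes lower (24.2%, against 15.1% of all genes tested) and 6 higher (18.2%, against 32.8%). The TPM values of all genes together were shifted, with a median log2 ratio between the groups of 0.11 in TPM and 0.00 in CPM, so differences in TPM below are to be read against 0.11.

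SLC2A6, SLC2A12, ALDOC, ENO3 and SLC16A3 kept their calls in each of the 8 alternative analyses and in each of the 6 fits that left out a library. HK2, HKDC1 and PFKM each kept theirs in 1 of those 6 fits, PDK3 in 2, and PFKFB3 and PDK2 in 3. Without WT replicate 1, 11 of the genes were lower and 6 higher. The fit without WT replicate 3 gave 5 and 2, that without WT replicate 2 gave 4 and 1, and those without MLST8-KO replicate 1 or replicate 2 each gave 4 and 2.

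**Figure D1:**
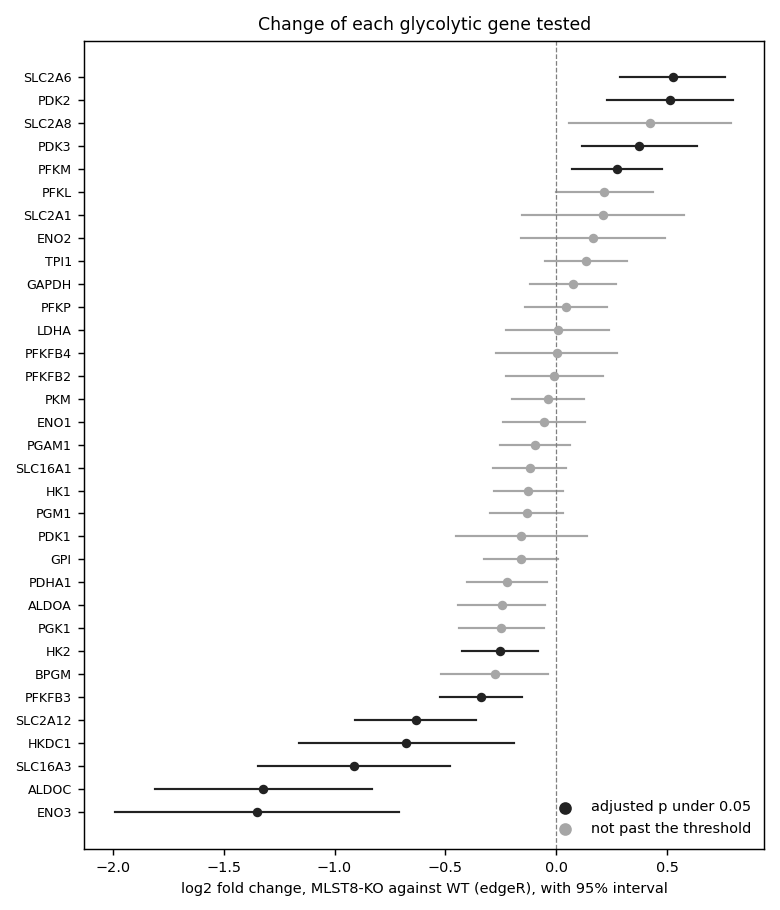
The log2 fold change of each of the 33 glycolytic genes tested (horizontal axis, MLST8-KO against WT, edgeR), ordered by size, with bars for the 95% interval. Black points have an adjusted p under 0.05 (7 lower, 4 higher), and ENO3 (-1.35) and ALDOC (-1.32) lie farthest from 0.

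The 36 genes spanned a wide range of expression. GAPDH was the most abundant, at 4150.0 ± 335 TPM in WT and 4712.0 ± 299 TPM in MLST8-KO libraries (SD, n = 3 each), followed in WT by ENO1 at 2189.0 ± 190.3, ALDOA at 1466.0 ± 93.2 and PKM at 1137.0 ± 29.3 TPM. At the other end SLC2A3, PKLR and LDHB were each under 1 TPM in every WT library. All 36 together made up 1.27 to 1.40% of the TPM in WT and 1.35 to 1.45% in MLST8-KO libraries, so these ranges overlapped. In 10 of the 11 steps with more than 1 gene, the same isozyme led in all 6 libraries, and the exception was the PDK family.

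**Figure D2:**
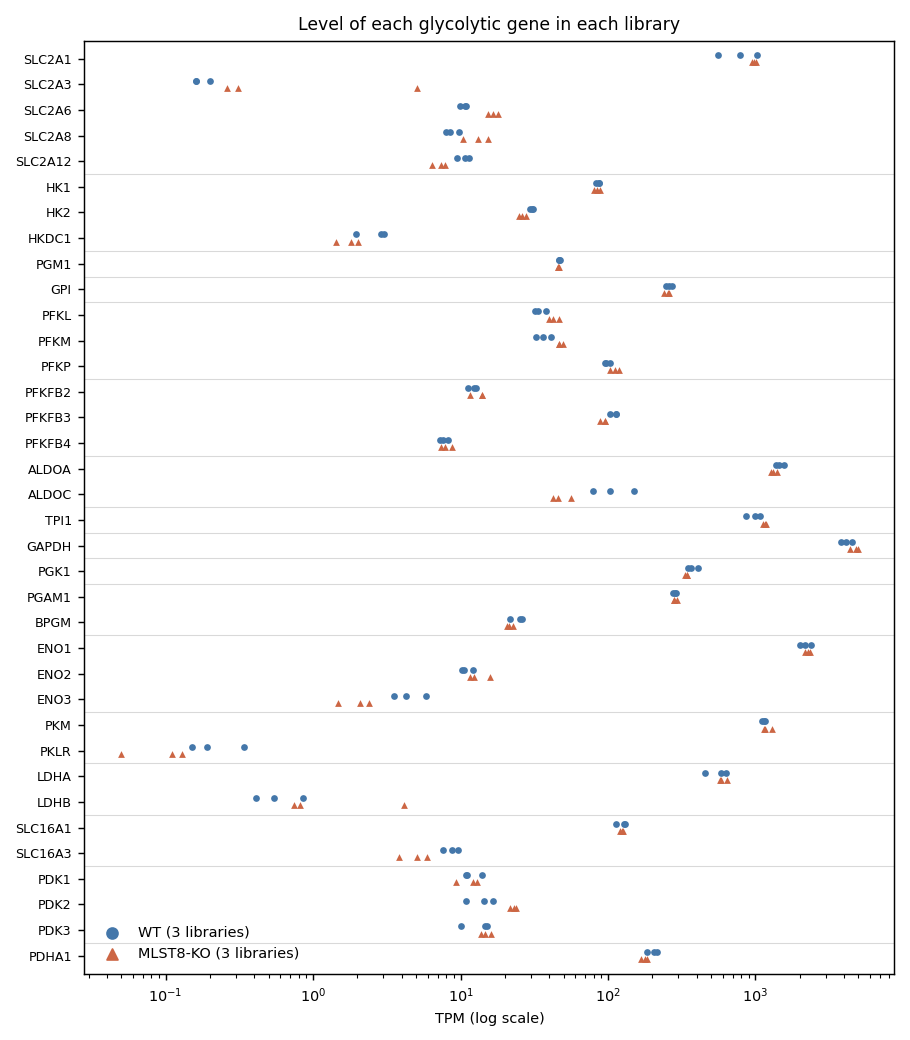
TPM (log scale) of the 36 glycolytic genes in the 3 WT (circles) and 3 MLST8-KO libraries (triangles), ordered by step from glucose uptake to pyruvate dehydrogenase, with lines between steps. In most steps 1 gene stands far above the others in all 6 libraries, and SLC2A3 and LDHB are each high in 1 MLST8-KO library.

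Glucose transporter TPM was mostly that of SLC2A1 (GLUT1, the basal glucose transporter of most cells). Its share of the summed TPM of the 5 transporters was 96.2 ± 0.93% in WT and 96.2 ± 0.22% in MLST8-KO libraries. SLC2A1 was at 1022, 781 and 560.4 TPM in WT replicates 1 to 3 and at 974, 953 and 1013 TPM in MLST8-KO replicates 1 to 3. The WT libraries spread over a wider range than the MLST8-KO libraries, which lay inside it (log2 fold change 0.21, SE 0.16, adjusted p = 0.340 by edgeR), and SLC2A1 passed the threshold only in the fit without WT replicate 1 (0.44).

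The minor transporters SLC2A6 and SLC2A12 moved in opposite directions. SLC2A6, a transporter of intracellular membranes (chromosome 9, 133471095 to 133479137), was at 9.98, 10.9 and 10.8 TPM in WT and 16.6, 18.1 and 15.3 TPM in MLST8-KO libraries. All MLST8-KO values were above all WT values, and the gene rose by 0.53 on the log2 scale (SE 0.11, adjusted p = 0.00711 by edgeR), or 1.44-fold. SLC2A12, a relative of the insulin-responsive transporter GLUT4 (chromosome 6, 133988697 to 134052636), was at 11.4, 10.8 and 9.43 TPM in WT and 6.38, 7.83 and 7.35 TPM in MLST8-KO libraries. The groups did not overlap, and the gene fell by 0.63 on the log2 scale (SE 0.12, adjusted p = 0.00604 by edgeR). Exons of SLC2A12 overlap those of TBPL1 on the opposite strand, and TBPL1 had a log2 fold change of 0.02 (adjusted p = 0.860 by edgeR). SLC2A8 (GLUT8), another intracellular transporter, was at 8.76 ± 0.95 and 12.98 ± 2.53 TPM and did not pass the threshold (0.42, SE 0.17, adjusted p = 0.0725 by edgeR).

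The DNA before the start of 4 called genes is shown, the pair of transporters that moved in opposite directions and the PFKFB and lactate transporter genes that fell, so that the letters near their starts can be set side by side. Each is taken from RefSeq's promoter table (GRCh38.p14) in the gene's own direction, from 250 bases before the start and without any base that a GENCODE exon covers. Capitals mark ACGTG or GCGTG on either strand, which are the letters of the core motif of hypoxia-inducible factors (HIFs), factors known to act on glycolytic genes.
SLC2A6 (chr9:133479138-133479349, minus strand): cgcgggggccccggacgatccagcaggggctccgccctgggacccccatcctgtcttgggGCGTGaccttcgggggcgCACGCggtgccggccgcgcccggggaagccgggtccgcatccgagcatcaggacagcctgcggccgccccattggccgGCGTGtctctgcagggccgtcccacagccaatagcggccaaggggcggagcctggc
SLC2A12 (chr6:134052637-134052874, minus strand): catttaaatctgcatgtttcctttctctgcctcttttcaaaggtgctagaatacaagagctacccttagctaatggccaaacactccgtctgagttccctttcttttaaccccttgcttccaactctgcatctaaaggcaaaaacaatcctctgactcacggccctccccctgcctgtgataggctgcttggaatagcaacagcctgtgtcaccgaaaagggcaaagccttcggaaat
PFKFB3 (chr10:6144671-6144920, plus strand): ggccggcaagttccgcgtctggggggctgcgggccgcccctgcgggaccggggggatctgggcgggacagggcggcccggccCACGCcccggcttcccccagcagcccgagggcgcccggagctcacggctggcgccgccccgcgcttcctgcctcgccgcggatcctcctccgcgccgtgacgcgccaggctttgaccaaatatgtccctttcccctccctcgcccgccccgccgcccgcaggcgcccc
SLC16A3 (chr17:82228185-82228396, plus strand): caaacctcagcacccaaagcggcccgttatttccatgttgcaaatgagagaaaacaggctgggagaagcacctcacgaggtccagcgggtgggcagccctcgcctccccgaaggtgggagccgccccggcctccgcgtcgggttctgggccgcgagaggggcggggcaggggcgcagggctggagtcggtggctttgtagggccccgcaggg
SLC2A6, which rose, held GCGTG 3 times, PFKFB3, which fell, held it 1 time, and SLC2A12 and SLC16A3, which also fell, held neither motif in these letters. RefSeq listed a promoter for 33 of the 36 glycolytic genes. These are not the 33 genes tested, as they include PKLR and lack SLC16A1. Over the 250 bases before the start, 18 of these 33 genes (54.5%) held 1 or both motifs, against 57.4% of the 10561 promoters of genes tested and 43.1% of all 27305 promoters. ACGTG alone was found in 11 of the 33 (33.3%), against 23.2% of promoters of genes tested, and GCGTG in 11 (33.3%) against 45.7%. CACGTG, which contains ACGTG on both strands, was found in ALDOC, GAPDH, PKLR and LDHA (12.1%, against 8.96%). Among the genes called, 4 of 7 lower genes (HK2, PFKFB3, ALDOC and ENO3) and 2 of 4 higher genes (SLC2A6 and PDK3) held 1 or both. A match is a description of the letters only.

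SLC2A3 (GLUT3, the high-affinity transporter of neurons) was barely expressed except in 1 library. It had 5, 5 and 6 estimated counts in WT replicates 1 to 3 and 155, 8 and 10 in MLST8-KO replicates 1 to 3. MLST8-KO replicate 1 is the library with the liver genes, and their part in this value was not tested. In the other 2 MLST8-KO libraries SLC2A3 was at 0.26 and 0.31 TPM, against 0.16 to 0.20 TPM in WT. SLC2A14, a close copy of SLC2A3 with which reads may be shared, had 0 or 1 counts in every library.

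At the hexokinase step, HK1, the constitutive mitochondria-bound isozyme, held the larger share and HK2, the inducible isozyme typical of tumours, the smaller. HK1 made up 72.2 ± 1.12% of hexokinase TPM in WT and 75.01 ± 1.08% in MLST8-KO libraries, and HK2 25.6 ± 0.67% and 23.4 ± 0.96%. Neither share overlapped between the groups. HK2 (chromosome 2, 74833981 to 74893359) was at 29.6, 30.8 and 30.4 TPM in WT and 27.9, 26.2 and 24.9 TPM in MLST8-KO libraries. The MLST8-KO libraries were all lower, by little (fold 0.839, adjusted p = 0.0309 by edgeR), and the call was lost with upper quartile scaling and with limma on TPM. HK1 was at 87.2, 86.4 and 82.5 TPM in WT and 84.4, 88.6 and 79.9 TPM in MLST8-KO libraries, which overlapped. In CPM all MLST8-KO libraries were lower, and HK1 did not pass the threshold (log2 fold change -0.13, SE 0.07, adjusted p = 0.191 by edgeR).

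HKDC1, a hexokinase gene, lies just before HK1 on chromosome 10 (69220303 to 69267559, HK1 from 69269984). It was at 1.95, 3.01 and 2.87 TPM in WT and 2.02, 1.81 and 1.42 TPM in MLST8-KO libraries, so in TPM the groups overlapped through WT replicate 1. In CPM they did not, and the gene fell by 0.68 on the log2 scale (SE 0.22, adjusted p = 0.0380 by edgeR). The call was lost with DESeq2, upper quartile scaling, limma on TPM and the replicate block (adjusted p = 0.0520 by edgeR with the block). PGM1, which links glycogen to glucose 6-phosphate, was at 46.7, 47.2 and 46.4 TPM in WT and 46.5, 45.5 and 45.8 TPM in MLST8-KO libraries (-0.13, adjusted p = 0.192 by edgeR). GPI, which makes fructose 6-phosphate, was at 271, 261 and 249 TPM in WT and 239.8, 261 and 255 TPM in MLST8-KO libraries (-0.16, adjusted p = 0.125 by edgeR). Both overlapped in TPM but not in CPM, where all MLST8-KO libraries were lower. Summed over its 3 genes, hexokinase was at 118 ± 2.24 TPM in WT and 112 ± 5.42 TPM in MLST8-KO libraries, and these overlapped.

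Phosphofructokinase-1 (PFK1), the committing enzyme, is a tetramer of platelet (PFKP), liver (PFKL) and muscle (PFKM) subunits, and all 3 were expressed. PFKP led with 58.3 ± 1.36% of the TPM in WT and 55.04 ± 1.30% in MLST8-KO libraries, a lower share in every MLST8-KO library. PFKL held 20.2 ± 0.58% and 21.3 ± 0.65%, a share higher in every MLST8-KO library by the smallest of margins (20.667% in WT replicate 1 and 20.668% in MLST8-KO replicate 1). PFKM (chromosome 12, 48105139 to 48146404) was at 41.03, 36.2 and 32.6 TPM in WT and 49.7, 46.6 and 46.3 TPM in MLST8-KO libraries. All MLST8-KO values lay above all WT values, and PFKM rose by 0.28 on the log2 scale (SE 0.09, adjusted p = 0.0420 by edgeR). Without a filter on low counts the adjusted p was 0.0518 by edgeR and the call was lost.

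PFKL was at 37.7, 32.1 and 33.3 TPM in WT and 39.95, 42.6 and 46.4 TPM in MLST8-KO libraries (0.22, SE 0.10, adjusted p = 0.114 by edgeR). PFKP was at 103.76, 95.9 and 97.2 TPM in WT and 103.61, 111 and 119 TPM in MLST8-KO libraries (0.04, SE 0.08, adjusted p = 0.70 by edgeR). PFKL did not overlap between the groups in TPM but did in CPM, and PFKP overlapped in both. Together the PFK1 genes were at 183, 164 and 163 TPM in WT and 193, 200.3 and 211 TPM in MLST8-KO libraries, a difference of 0.25 on the log2 scale against the shift of 0.11 over all genes. PFKM exons overlap those of SENP1 on the opposite strand (SENP1 was at -0.06 on the log2 scale, with an adjusted p = 0.680 by edgeR).

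The PFKFB enzymes make and break fructose 2,6-bisphosphate, the strongest activator of PFK1, and the leading gene of this step fell. PFKFB3, the isozyme with the highest kinase activity (chromosome 10, 6144934 to 6254644), was at 103, 114 and 113 TPM in WT and 88.4, 95.8 and 95.9 TPM in MLST8-KO libraries. The groups did not overlap, and PFKFB3 fell by 0.34 on the log2 scale (SE 0.08, adjusted p = 0.0143 by edgeR). The call was lost in the fits without WT replicate 2 and without MLST8-KO replicate 1 or 2. PFKFB3 held 84.7 ± 0.84% of the PFKFB TPM in WT and 81.5 ± 0.99% in MLST8-KO libraries. PFKFB4, a further isozyme, held 5.93 ± 0.21% and 6.99 ± 0.51%. It was at 7.24, 8.22 and 7.62 TPM in WT and 7.34, 7.88 and 8.81 TPM in MLST8-KO libraries, which overlapped (0.00, adjusted p = 0.988 by edgeR). The heart isozyme PFKFB2 had a log2 fold change of -0.01 (adjusted p = 0.957 by edgeR), and its exons overlap those of YOD1 on the opposite strand, a gene that was lower (-0.54, adjusted p = 0.0056 by edgeR).

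Aldolase splits fructose 1,6-bisphosphate, and here the minor isozyme fell and the leading isozyme did not pass the threshold. ALDOC, the brain-type isozyme (chromosome 17, 28573115 to 28577264), was at 78.9, 104 and 151 TPM in WT and 45.9, 42.2 and 56.2 TPM in MLST8-KO libraries. The WT values differed from each other by more than those of MLST8-KO cells, and the lowest WT value was above the highest MLST8-KO value. ALDOC fell by 1.32 on the log2 scale (SE 0.22, adjusted p = 0.00389 by edgeR), to 0.40 of its WT level, with log2 fold changes of -1.53 to -1.02 when each library was left out.

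ALDOA, the general isozyme, was at 1384, 1446 and 1567 TPM in WT and 1280.4, 1319 and 1396 TPM in MLST8-KO libraries. Its groups overlapped by a narrow margin in TPM and not in CPM, and it did not pass the threshold (-0.25, SE 0.09, adjusted p = 0.0565 by edgeR), though it did with DESeq2. ALDOC thus held 6.96 ± 1.71% of the aldolase TPM in WT and 3.48 ± 0.38% in MLST8-KO libraries. Summed aldolase was at 1577 ± 129.7 and 1380.0 ± 65.2 TPM, a log2 difference of -0.19, with every MLST8-KO library below every WT library.

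The steps from triose phosphate to 2-phosphoglycerate held no gene that passed the threshold. TPI1, which interconverts the triose phosphates, was at 1071, 994 and 867 TPM in WT and 1122, 1165 and 1173 TPM in MLST8-KO libraries, which did not overlap in TPM but did in CPM (log2 fold change 0.13, SE 0.08, adjusted p = 0.239 by edgeR). GAPDH, which makes NADH and is often used as a reference gene, was at 4495, 3826 and 4130.15 TPM in WT and 4371, 4935 and 4829 TPM in MLST8-KO libraries. The groups overlapped (log2 fold change 0.08, 95% interval -0.12 to 0.27, adjusted p = 0.521 by edgeR). PGK1, the first ATP-yielding enzyme, was at 348, 369 and 409 TPM in WT and 345, 345 and 333 TPM in MLST8-KO libraries. The highest MLST8-KO value lay just under the lowest WT value, and the difference missed the threshold of edgeR (-0.25, SE 0.09, adjusted p = 0.0511 by edgeR), whereas PGK1 was called with DESeq2 (adjusted p = 0.0298) and with DESeq2's size factors in edgeR (adjusted p = 0.0496). The exons of PGK1 overlap those of ATP7A on the same strand, a gene that rose (0.97, adjusted p = 0.00666 by edgeR) at 141 to 500 counts.

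PGAM1, the general phosphoglycerate mutase, was at 277, 284 and 288 TPM in WT and 282, 293 and 280.1 TPM in MLST8-KO libraries (-0.10, adjusted p = 0.314 by edgeR). BPGM, which makes 2,3-bisphosphoglycerate, was at 21.8, 25.2 and 26.3 TPM in WT and 21.3, 22.8 and 20.8 TPM in MLST8-KO libraries (-0.28, SE 0.11, adjusted p = 0.0724 by edgeR). Both overlapped in TPM but not in CPM, where all MLST8-KO libraries were lower. BPGM held 7.94 ± 0.58% of their TPM in WT and 7.05 ± 0.14% in MLST8-KO libraries. In GENCODE, 62 pseudogenes carry the name of GAPDH and 13 that of PGAM1, so reads of these genes may be split among copies.

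At the enolase step ENO1, the general isozyme, held 99.3% of the TPM in both groups. ENO1 was at 2388, 2172 and 2008 TPM in WT and 2172, 2283 and 2348 TPM in MLST8-KO libraries, and the groups overlapped (-0.05, SE 0.08, adjusted p = 0.634 by edgeR). ENO3, the muscle isozyme (chromosome 17, 4948092 to 4957131), had 47, 56 and 79 counts in WT and 18, 30 and 30 counts in MLST8-KO libraries. Every MLST8-KO library was below every WT library, and ENO3 fell by 1.35 on the log2 scale (SE 0.29, adjusted p = 0.00844 by edgeR), the largest change among the glycolytic genes tested. The low counts leave a wide interval (-1.99 to -0.71).

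ENO3 made up 0.21 ± 0.07% of enolase TPM in WT and 0.09 ± 0.02% in MLST8-KO libraries, so summed enolase was at 2205 ± 188 and 2283 ± 87.2 TPM. Its exons overlap those of PFN1 on the opposite strand, a gene with 5031 to 5994 counts per library and a log2 fold change of 0.02 (adjusted p = 0.830 by edgeR). Of the skeletal muscle markers, 5 were in the table, with a summed TPM of 15.1 to 25.03 that was made mostly of TNNT1. ENO2, the neuronal isozyme, was at 10.97 ± 1.08 and 13.3 ± 2.26 TPM (0.17, SE 0.15, adjusted p = 0.398 by edgeR).

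Pyruvate kinase was almost all PKM, whose splice forms M1 and M2 are not separated in these gene-level values. PKM was at 1165, 1140.3 and 1107 TPM in WT and 1144, 1306 and 1155 TPM in MLST8-KO libraries, and the groups overlapped (log2 fold change -0.04, 95% interval -0.20 to 0.13, adjusted p = 0.712 by edgeR). PKLR, the liver and red cell isozyme, had 3, 3.47 and 7.91 counts in WT and 1.24, 1 and 2 counts in MLST8-KO libraries. These counts are too few for a fold change, and PKLR was not tested. This also holds for its 1.24 counts in MLST8-KO replicate 1, the library with the liver genes, which are too few for a comparison between libraries.

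Lactate dehydrogenase was almost all LDHA, the isozyme that favours lactate formation. LDHA (chromosome 11, 18394388 to 18408425) was at 633, 584 and 456 TPM in WT and 586, 645 and 577 TPM in MLST8-KO libraries. The groups overlapped, with a log2 fold change of 0.01 and a 95% interval of -0.23 to 0.24 (adjusted p = 0.969 by edgeR). LDHA held 99.9 ± 0.04% of the TPM in WT and 99.7 ± 0.33% in MLST8-KO libraries.

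LDHB, the isozyme that favours pyruvate formation, was near the limit of detection (chromosome 12, 21635342 to 21757857). It had 4, 8 and 5 counts in WT and 39, 7 and 8 counts in MLST8-KO libraries, where 3 counts is the limit that a count of 0 allows. The high value was that of MLST8-KO replicate 1, in which LDHB made up 0.70% of the TPM of this step, against 0.06 to 0.15% in the other 5 libraries. The liver genes were high in the same library, and their part in the LDHB value was not tested. LDHA was at 586 TPM there, a level at which a few TPM more would not be seen.

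**Figure D3:**
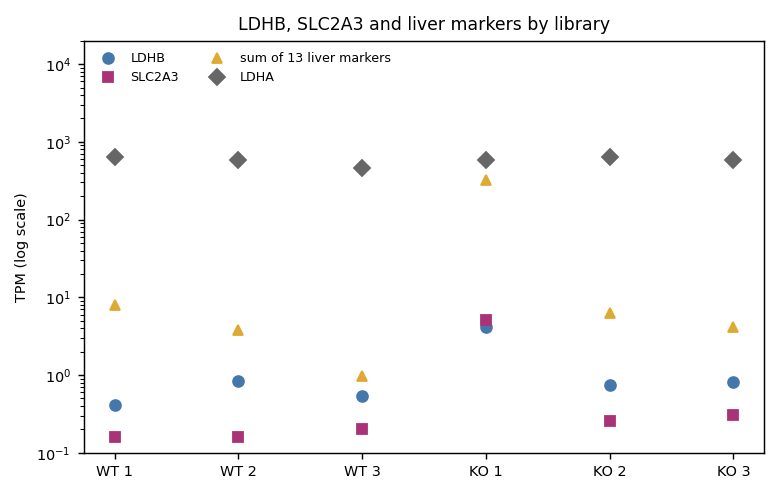
TPM (log scale) of LDHB, SLC2A3, LDHA and the sum of 13 liver genes in each of the 3 WT and 3 MLST8-KO (KO) libraries. LDHB (4.15), SLC2A3 (5.10) and the liver genes (322) are high in MLST8-KO replicate 1 alone. LDHA in that library (586) lies among the others, at a level at which a few TPM more would not be seen.

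Lactate transporter TPM was mostly that of SLC16A1 (MCT1), a transporter that works in both directions. SLC16A3 (MCT4), the export transporter of highly glycolytic cells, was the minor gene and fell. SLC16A3 (chromosome 17, 82228397 to 82261129) was at 7.64, 8.77 and 9.60 TPM in WT and 5.06, 3.85 and 5.96 TPM in MLST8-KO libraries. The groups did not overlap, and SLC16A3 fell by 0.91 on the log2 scale (SE 0.20, adjusted p = 0.00855 by edgeR), to 0.532 of its WT level. Its share of lactate transporter TPM was 6.54 ± 1.14% in WT and 3.85 ± 0.86% in MLST8-KO libraries.

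SLC16A3 exons overlap those of CSNK1D on the opposite strand, and CSNK1D, at 3171 to 4409 counts, was lower too (-0.40, adjusted p = 0.0102 by edgeR). The sources do not say whether counting used strand, so reads of the overlap cannot be assigned to either gene here. SLC16A1 was at 131, 129 and 114 TPM in WT and 125, 126 and 121 TPM in MLST8-KO libraries. These overlapped in TPM, while in CPM all MLST8-KO libraries were lower, and SLC16A1 was not called (-0.12, SE 0.07, adjusted p = 0.233 by edgeR). The summed lactate transporters were at 134 ± 8.48 and 129 ± 1.64 TPM.

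The PDK family, which blocks entry of pyruvate into the citric acid cycle, was the step in which the leading isozyme by TPM differed between libraries. In WT libraries the 3 kinases held similar shares of the TPM, with PDK2 at 36.3, 35.9 and 34.1%, and the leading gene was PDK2, PDK3 and PDK1 in replicates 1, 2 and 3. In MLST8-KO libraries PDK2, a broadly expressed isozyme (chromosome 17, 50094737 to 50112152), led with 44.7, 44.5 and 50.7%. Its share of the TPM was 11.2 percentage points higher on average, and that of PDK1, a known HIF target, was 7.39 points lower (30.7 ± 3.36% and 23.3 ± 2.91%). On scaled counts, which are not per length, the share of PDK2 was only 4.76 points higher and that of PDK1 was lower by a similar amount (-7.90 points). On that scale PDK3 had the most counts of the family in all 6 libraries.

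PDK2 was at 16.7, 14.4 and 10.9 TPM in WT and 21.7, 23.2 and 23.7 TPM in MLST8-KO libraries. The groups did not overlap, and PDK2 rose by 0.51 on the log2 scale (SE 0.13, adjusted p = 0.0150 by edgeR), or 1.43-fold. The call was lost in the fits without WT replicate 2 and without MLST8-KO replicate 2 or 3. PDK1 itself was at 14, 11.02 and 10.9 TPM in WT and 12.2, 12.9 and 9.34 TPM in MLST8-KO libraries, which overlapped (log2 fold change -0.16, SE 0.13, adjusted p = 0.386 by edgeR). PDK2 exons overlap those of SAMD14 on the opposite strand, which had 3 to 8 counts.

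PDK3, an isozyme known for high kinase activity (chromosome X, 24465221 to 24541862), gave different answers on the count scale and on the per-length scale. It had 569, 492 and 393 counts in WT and 682, 756 and 608 counts in MLST8-KO libraries. On counts the groups did not overlap, and PDK3 rose by 0.37 on the log2 scale (SE 0.12, adjusted p = 0.0346 by edgeR). In TPM it was at 15.2, 14.7 and 10.1 in WT and 14.7, 16 and 13.7 in MLST8-KO libraries, which overlapped, and limma on log2(TPM + 1) did not call it.

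The ratio of count to TPM, which within a library reflects the length the authors' quantification assigned to a gene, was 1.25-fold higher for PDK3 in MLST8-KO libraries. With each library centred on its median gene, and relative to the mean of the WT libraries, this length was 0.993, 0.928 and 1.09 in WT. In MLST8-KO libraries it was 1.29, 1.28 and 1.18. A shift this large in either direction was seen in 0.727% of 12928 genes, and no other glycolytic gene of the 33 tested exceeded 0.1 on the log2 scale, where 5.66% of all genes did. PDK2 lay just under that limit in the opposite direction, at -0.0959, a size reached by 5.96% of genes. PDHA1 followed at 0.0823. The share of PDK3 in the family was accordingly 3.83 percentage points lower in MLST8-KO libraries in TPM and 3.14 points higher on scaled counts.

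**Figure D4:**
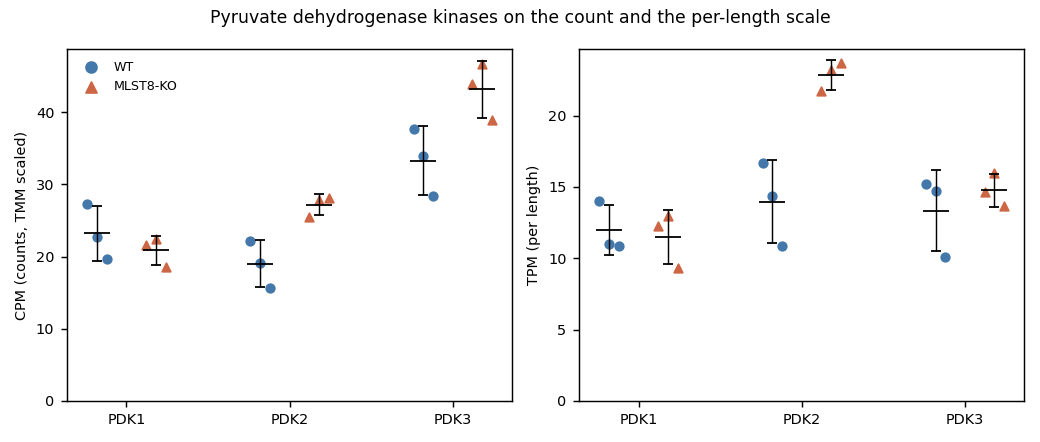
PDK1, PDK2 and PDK3 in the 3 WT (circles) and 3 MLST8-KO libraries (triangles), in CPM after TMM scaling (left) and in TPM (right), with bars for the mean ± SD. PDK2 lies higher in MLST8-KO cells on both scales, and PDK3 on the left scale alone.

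PDHA1, the catalytic subunit of pyruvate dehydrogenase that PDKs phosphorylate, was at 183, 205 and 217 TPM in WT and 183, 178 and 167 TPM in MLST8-KO libraries. The groups touched without overlapping (183.48 TPM in WT replicate 1 and 183.39 TPM in MLST8-KO replicate 1), and the difference did not pass the threshold (-0.22, SE 0.08, adjusted p = 0.0583 by edgeR), though it did with DESeq2 (adjusted p = 0.0436).

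Across the 11 steps with more than 1 gene, 25 isozyme shares were compared, and 15 of them did not overlap between the groups. Shares of a step add up to the whole and so depend on each other, and no rate over all genes was computed for shares. One of the 15 is that of PKM against PKLR and rests on PKLR counts near the limit that a count of 0 allows. With 3 libraries against 3 each of these had an exact two-sided permutation p = 0.1, the smallest the design allows, and an adjusted p = 0.167, so no share passed a threshold of 0.05. The minor isozyme held the lower share in MLST8-KO cells for ALDOC, ENO3, SLC16A3, BPGM, HK2 and SLC2A12 (1.34 ± 0.26% and 0.71 ± 0.08%), whereas the minor isozymes PFKFB4 and PFKL held higher shares. For PFKP and PFKFB3 it was the leading isozyme whose share was lower. In the PDK family the TPM share of PDK2 was higher, and those of PDK1 and PDK3 were lower. Of the 17 steps, the summed TPM was lower in every MLST8-KO library than in every WT library in 4 (PFKFB, aldolase, PGK1 and PDHA1) and higher in 3 (PFK1, TPI1 and PDK), with the smallest adjusted p = 0.243 by the exact permutation test. On counts scaled by TMM these numbers were 9 and 1. Among single genes, 15.1% of all tested were lower and 32.8% higher in this way in TPM. In CPM these rates were 24.2% and 24.8%.

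**Figure D5:**
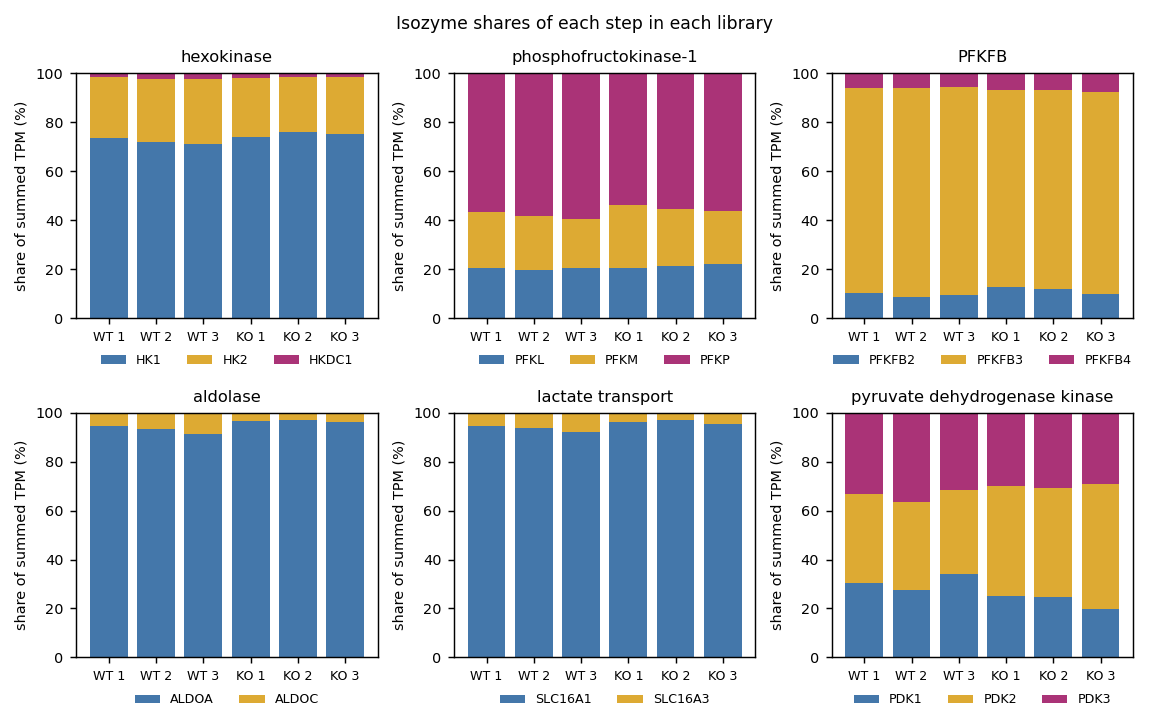
Share of each isozyme in the summed TPM of its step (vertical axis, %) in each of the 3 WT and 3 MLST8-KO (KO) libraries, for 6 steps. The shares of ALDOC and SLC16A3 are smaller in every MLST8-KO library, and that of PDK2 is larger (44.5 to 50.7%, against 34.1 to 36.3%).

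Of 59 other genes of glucose and pyruvate metabolism, 56 were in the table and 36 were tested. Of these, 6 fell (16.7%, against 15.7% of all genes tested) and 4 rose (11.1%, against 16.3%), with a median log2 fold change of 0.01, so neither share exceeded the background by more than 1 percentage point. TIGAR, EMB, PDP2, PGM3 and GFPT1 kept their calls in all 6 fits that left out a library, LDHD, PDHX and GYS1 in 4, PCK2 in 3 and TALDO1 in 2. PDHX also lost its call with limma on TPM, and the CPM groups of TALDO1 overlapped. Around the PFK1 step, TIGAR, which breaks down fructose 2,6-bisphosphate, fell by 0.54 on the log2 scale (adjusted p = 0.0056 by edgeR). Around lactate, LDHD, the mitochondrial D-lactate dehydrogenase, fell by 0.91 (adjusted p = 0.0188 by edgeR), and EMB, a chaperone of monocarboxylate transporters, rose (0.53, adjusted p = 0.00786 by edgeR). BSG, the main partner of MCT1 and MCT4, had a log2 fold change of -0.15 (adjusted p = 0.183 by edgeR).

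Around pyruvate dehydrogenase, PDP2, a phosphatase that undoes the action of the PDKs, rose (0.40, adjusted p = 0.00872 by edgeR), and PDHX, which anchors a subunit of the complex, fell by 0.34 (adjusted p = 0.0134 by edgeR). PCK2, the mitochondrial enzyme that makes phosphoenolpyruvate, fell by 0.51 (adjusted p = 0.0202 by edgeR). Among side branches, GYS1, glycogen synthase, rose (0.45, adjusted p = 0.0128 by edgeR), as did TALDO1 of the pentose phosphate pathway (0.31, adjusted p = 0.0439 by edgeR). GFPT1, which draws fructose 6-phosphate into hexosamine synthesis, fell by 0.93 (SE 0.15, adjusted p = 0.00342 by edgeR), and PGM3 of the same branch by 0.90 (SE 0.18, adjusted p = 0.00606 by edgeR). Of the isozymes known from other tissues, HK3, LDHC, FBP1 and PCK1 had at most 2 counts in any library. PGK2, PDK4 and PDHA2 were not in the table, so PDK4 does not enter the PDK shares.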

How the data were processed

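RNA-seq was performed on poly(A)-selected RNA of 3 WT and 3 MLST8-KO samples of HCC2814 cells on the DNBSEQ platform. The labels and the study's methods name different RNA extraction kits. The authors filtered the reads and used HISAT and Bowtie2 with the human genome (GRCh38.p12, per the labels). They deposited estimated counts per gene and library (not normalized), FPKM and TPM values (scaled by length and depth), and a table of their own comparisons, whose fold changes and p-values were not used. Strandedness of counting is not given in the sources used here.

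Of the deposited estimated counts, 12.4% were not whole, so all were rounded. Genes were filtered with filterByExpr, scaled with TMM and tested with edgeR 4.0.16 (glmQLFit, glmQLFTest; R 4.3.3), with Benjamini-Hochberg adjustment over 12951 genes and a threshold of 0.05. SE was derived from the log2 fold change and its F statistic (|log2 fold change| over the root of F). Isozyme shares and step sums used the deposited TPM, with exact two-sided permutation tests over libraries (scipy 1.17.1), adjusted over 25 shares and 17 steps. Alternatives were DESeq2 1.42.0, other scalings and filters, limma 3.58.1 on log2(TPM + 1) and log2(TPM + 0.1), a replicate block, FPKM or scaled counts for shares, and leaving out each library. On simulated counts for MLST8-KO against WT (12859 genes, 200 changed by a log2 fold change of 1), edgeR recovered 87.5% of the changed genes, and 8.38% of its calls were unchanged genes. That false share lay above the threshold of 0.05. Most called glycolytic genes changed by less than 1, so the recovery does not apply to them, and 4146 genes were called in the data. Gene positions and overlaps are from GENCODE release 29 (GRCh38).

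A count of 0 allows 3 counts, or 0.191 to 0.209 CPM per library, for counting error only. All 36 genes are named, with values per library for those past the threshold, those that lead a step and those whose share did not overlap. The other genes of glucose metabolism are named where they passed the threshold, and a few that did not were chosen after their values were seen. The genes, lists and markers were chosen with earlier results of these data known.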

Additional observations from a re-analysis of the deposited data

How the results depend on the processing

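When 1 library was left out, the glycolytic genes lower in MLST8-KO cells ranged from 4 to 11 and those higher from 1 to 6, against 7 and 4 with all libraries. For the other genes of glucose metabolism the ranges were 3 to 8 lower and 2 to 6 higher, and over all genes 850 to 2651 lower and 971 to 2692 higher. The summed TPM of steps did not overlap for 4 to 8 lower and 3 to 7 higher steps, and 15 to 19 isozyme shares did not overlap. Groups that do not overlap stay so when a library is left out. These counts of steps and shares could therefore not fall, and their ranges are no check of stability. The low ends over all genes came without MLST8-KO replicate 1 (850 lower) and without WT replicate 2 (971 higher). The cause was not tested.

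With limma, 1134 of all genes were lower on log2(TPM + 1) and 1132 on log2(TPM + 0.1), against 2030 in edgeR, and 7 of the other glucose genes were higher on log2(TPM + 0.1), against 4. On counts scaled by TMM, 9 steps were lower and 1 higher.

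The direction turned for 7 genes whose log2 fold changes were near 0 and not called. PFKFB2 was at 0.0474 with upper quartile scaling and at 0.104 and 0.111 with limma, and between -0.0769 and 0.0608 when a library was left out. PFKFB4 was at -0.00248 with DESeq2, -0.00167 with its size factors and -0.0015 without a filter, and between -0.0966 and 0.0763 when a library was left out. With limma on either pseudocount, PGAM1 was at 0.0115, ENO1 at 0.0535 and PKM at 0.0766, and PKM was at 0.0163 with upper quartile scaling. When a library was left out, PFKP ranged from -0.0228 to 0.0839, ENO1 from -0.103 to 0.00104 and LDHA from -0.106 to 0.0981. The PDK3 share differed by 3.14 points on scaled counts, against -3.83 points in TPM, and the PDK2 share by 4.76 points, against 11.2.

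Same-numbered libraries correlated at 0.0882, 0.0757 and 0.151 in their deviations from the group means, and each WT library correlated best with its own number. Libraries of different number correlated at -0.122 to 0.0393. Not every same-numbered pair exceeded 0.1, and the libraries were treated as unpaired. Whether same-numbered libraries shared a batch was not tested. Over all genes, a replicate block gave 2157 lower and 2261 higher, against 2030 and 2116 without it. With a replicate block, 7 glycolytic genes were lower and 4 higher, HKDC1 was no longer called, ALDOA was called, and PFKFB4 was at -0.00235.

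Depth limited the genes with few counts. SLC2A3, PKLR and LDHB were not tested, and ENO3 had at most 79 counts in a library.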

Other observations

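GFPT1 and PGM3 were 2 of the lower genes beside glycolysis, and the other genes of hexosamine synthesis and use were therefore looked at after those values were seen. GFPT2, a second isozyme of the entry step, had 144, 232 and 281 counts in WT and 77, 73 and 65 counts in MLST8-KO libraries. The groups did not overlap, and GFPT2 fell by 1.74 on the log2 scale (SE 0.25, adjusted p = 0.00283 by edgeR). GFPT1 was at 99.6, 117 and 145 TPM in WT and 63.8, 76.6 and 55.8 TPM in MLST8-KO libraries, and PGM3 at 29.01, 37.7 and 52.5 TPM and 20.3, 26.4 and 20.6 TPM. AMDHD2, which works against the pathway by removing the acetyl group of N-acetylglucosamine 6-phosphate, rose (0.64, SE 0.17, adjusted p = 0.0169 by edgeR). UAP1, the last enzyme of the branch, had a log2 fold change of -0.34 (adjusted p = 0.0710 by edgeR). GNPNAT1 (-0.07), NAGK (0.01), OGT (-0.06) and OGA (0.20) did not pass the threshold either.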
